A study of Mus musculus with 24 samples.

Results

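A set of 10 genes known for their roles in the lactating mammary gland was followed by total RNA-seq of mouse adipose tissue. They were found by their symbols, and all 10 matched among the 24421 gene symbols of the deposited count files. They are the casein genes Csn1s1, Csn1s2a, Csn2 and Csn3, the whey protein genes Wap and Lalba, the transcription factor gene Elf5, the mucin gene Glycam1, and Xdh and Btn1a1, whose proteins take part in the secretion of milk fat. The study compared wild-type (WT) C57BL/6 mice with mice that carried 1 of 2 amino acid changes in STAT5B, Y665F (tyrosine to phenylalanine) or Y665H (tyrosine to histidine), at the same residue of the SH2 domain. Each genotype was sampled in males and in females at 2 months of age, with 4 libraries in each of the 6 groups and 24 libraries in all. The labels name the tissue as adipose, with no depot, and give neither the number of mutant alleles per mouse nor the reproductive state of the females. They also do not say that the 4 libraries of a group came from 4 mice, so the p-values below measure the spread between these libraries.

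STAT5A and STAT5B are latent transcription factors. In the mammary epithelium, prolactin binds its receptor, the receptor-associated kinase JAK2 phosphorylates STAT5, and the STAT5 dimer enters the nucleus and binds DNA at the palindromic motif TTCNNNGAA. Caseins, whey acidic protein and α-lactalbumin are the classical targets of this pathway, and their transcripts accumulate in alveolar cells during pregnancy and lactation. In adipocytes STAT5 is also activated by growth hormone.

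The windows of 250 bases before the annotated start are shown for 4 of these genes: Csn1s1, Csn2 and Glycam1, whose windows hold the motif that STAT5 is known to bind, and Wap, a classical target whose window does not. RefSeq promoter windows on GRCm38.p6 were matched for 7 of the 10 genes, as 8 windows in all, and both strands were searched. Csn3, Btn1a1 and Xdh were not matched. The sequences run 5′ to 3′ on the strand of the gene, and capitals mark a match to TTCNNNGAA.
Csn1s1, chr5:87665958-87666207, plus strand: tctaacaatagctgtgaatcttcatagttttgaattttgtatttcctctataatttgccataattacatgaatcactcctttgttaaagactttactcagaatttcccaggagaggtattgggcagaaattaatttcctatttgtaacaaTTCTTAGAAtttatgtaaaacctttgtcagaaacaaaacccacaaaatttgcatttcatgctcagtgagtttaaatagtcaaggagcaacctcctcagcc
Csn2, chr5:87699426-87699675, minus strand: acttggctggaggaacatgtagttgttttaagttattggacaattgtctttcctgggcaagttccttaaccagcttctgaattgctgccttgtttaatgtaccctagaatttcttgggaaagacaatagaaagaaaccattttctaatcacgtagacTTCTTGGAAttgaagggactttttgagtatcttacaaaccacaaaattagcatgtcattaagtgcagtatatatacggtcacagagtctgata
Glycam1, chr15:103565082-103565331, minus strand: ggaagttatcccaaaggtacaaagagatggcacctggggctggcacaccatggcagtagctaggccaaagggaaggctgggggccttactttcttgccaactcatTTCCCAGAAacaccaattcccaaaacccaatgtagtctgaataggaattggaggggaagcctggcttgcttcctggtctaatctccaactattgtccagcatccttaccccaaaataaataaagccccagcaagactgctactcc
Wap, chr11:6638650-6638899, minus strand: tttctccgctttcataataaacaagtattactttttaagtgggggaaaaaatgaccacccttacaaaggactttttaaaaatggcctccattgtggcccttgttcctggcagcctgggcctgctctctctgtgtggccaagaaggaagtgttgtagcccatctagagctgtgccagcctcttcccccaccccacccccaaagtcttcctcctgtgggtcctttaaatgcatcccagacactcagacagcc
The match was TTCTTAGAA in Csn1s1 (bases 100 to 92 before the start), TTCTTGGAA in Csn2 (bases 93 to 85) and TTCCCAGAA in Glycam1 (bases 145 to 137). These letters did not occur in the windows of Wap, Csn1s2a and Lalba or in either window of Elf5. Of 32851 such windows in the mouse table, 2306 (7.02%) hold the motif. A stricter form, TTCNNGGAA or TTCCNNGAA, was in the windows of Csn2 and Glycam1 and in 4.06% of all windows.

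In this adipose tissue 8 of the 10 genes were at or close to the limit of detection in every genotype and both sexes. A count of 3 or less in a library was taken as at or under the counting floor, and a gene as near the floor in a group when at least 3 of its 4 libraries were there. Csn1s1, Csn1s2a, Csn2, Csn3, Wap, Lalba, Glycam1 and Btn1a1 together held 254 of all gene counts of the 24 libraries, and 24 of their 192 library values were above the floor. The 4 caseins and Lalba and Btn1a1 were near the floor in all 6 groups, Wap in 4, Glycam1 in 2, Elf5 in 1 and Xdh in 0. The total of gene counts per library was 21.0 to 41.3 M (M stands for 1e6), with a median of 34.6 M, so the floor was 0.0726 to 0.143 counts per 1e6 gene counts (CPM). Per kilobase of exon, over the annotated exons of each gene in GENCODE on GRCm38, the mean level over 24 libraries was 54.3 CPM for Xdh, 0.185 for Elf5, 0.0913 for Wap, 0.0516 for Glycam1 and at most 0.0347 for each of the other 6 genes. Xdh was thus the 1 gene of the 10 with an abundant transcript.

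**Figure D1:**
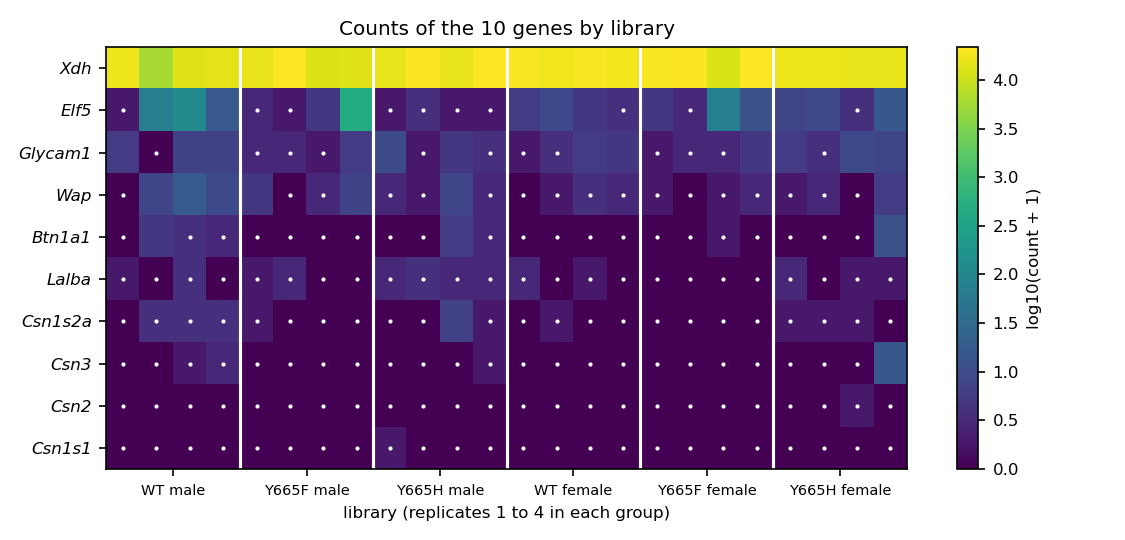
Counts of the 10 genes in each of the 24 libraries (columns, 4 per group, replicates 1 to 4 from left to right), coloured by log10(count + 1). White dots mark counts of 3 or less. Xdh is high in every column, Elf5 is high in 4 columns of 3 groups, and the caseins are dark throughout.

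Xist separated the sexes as labelled, with 492 to 942 CPM in the female and 0.0302 to 2.64 CPM in the male libraries, as did Ddx3y, with at most 0.109 CPM in the female and 64.5 to 124.5 CPM in the male libraries. The adipocyte list of 12 genes, led by Cfd, Fabp4 and Plin1, summed to 6961 to 27938 CPM, with all 12 genes at a mean of at least 1 CPM in every group. Libraries differed in markers of other cells. A list of 15 luminal epithelial genes, led by Krt19, Prom1 and Krt8, summed to 2410 CPM in WT male 2, 1821 CPM in Y665F female 3, 1463 CPM in WT male 3, 904 CPM in Y665F male 4, 764 CPM in WT male 4 and 716 CPM in Y665H male 3. In the other 18 libraries it summed to 119 to 399.7 CPM. A list of 8 epididymis genes, led by Adam7, Crisp1 and Lcn8, summed to 15711 CPM in WT male 2, 3327 in WT male 3, 1604 in Y665H male 3, 1220 in WT male 4 and 953 in Y665F male 4, and to at most 2.16 CPM in every female library.

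Casein transcripts were barely detected. Caseins form the micelles of milk, and κ-casein, from Csn3, stabilises their surface. The 4 genes lie within 266.3 kb of chromosome 5 (GRCm38, 87666208 to 87932550). Csn1s1 had 1 count in all, in Y665H male 1, and Csn2 had 1 count, in Y665H female 3. Csn1s2a had 21 counts in all: 0, 3, 3 and 3 in WT males 1 to 4, 1, 0, 0 and 0 in Y665F males, 0, 0, 6 and 1 in Y665H males, 0, 1, 0 and 0 in WT females, none in Y665F females, and 1, 1, 1 and 0 in Y665H females. Only the 6 counts of Y665H male 3 (0.181 CPM, exact 95% binomial interval 0.0666 to 0.395) were above the floor, and the groups overlapped. Csn3 had 18 counts in all, of which 14 were in Y665H female 4 (0.398 CPM, interval 0.217 to 0.667); the other 3 libraries of that group had 0. Such intervals and the floor cover counting error only, since read pairs made with PCR are not independent molecules.

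Other genes of the same chromosomal stretch were read in males. The RefSeq table places 11 genes between Csn1s1 and Csn3, ends included, of which 9 were in the count files; those that are not among the 10 genes were taken for their position. Csn1s2b, a further casein, had 10 counts in all, and BC037156 had 3. The transcribed pseudogene Gm7337 had 277, with 0, 48, 95 and 96 in WT males 1 to 4 and 24 in Y665H male 3. Prr27 had 1723 counts, with 0, 317, 590 and 469 in WT males 1 to 4, 280 in Y665H male 3 and at most 45 in any other library. Odam, which encodes an odontogenic ameloblast-associated secreted protein, had 1287 counts, with 0, 264, 491 and 234 in WT males 1 to 4, 216 in Y665H male 3 and at most 43 elsewhere. Both had 0 counts in all 12 female libraries. The 4 libraries with the most Prr27 and Odam were the 4 with the highest sums of the epididymis list; the part of other tissue in these counts was not tested.

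The whey protein genes were read somewhat more often than the caseins. Wap encodes whey acidic protein, and Lalba encodes α-lactalbumin, the regulatory subunit of lactose synthase. Wap had 0, 7, 16 and 8 counts in WT males 1 to 4, 4, 0, 2 and 6 in Y665F males, and 2, 1, 7 and 2 in Y665H males. In females it had 0, 1, 3 and 2 counts in WT, 1, 0, 1 and 2 in Y665F, and 1, 2, 0 and 5 in Y665H. The highest level was 0.460 CPM in WT male 3 (interval 0.263 to 0.748). The 12 male libraries held 55 Wap counts and the 12 female libraries 18, and 6 male libraries but 1 female library exceeded the floor. The 6 male libraries above the floor were the 6 with the highest sums of the epididymis list, from 362 CPM in Y665F male 1 upward, and the part of that tissue in the Wap counts was not tested. Lalba had at most 3 counts in any library and 23 in all, so no difference between groups was detectable at this depth.

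Btn1a1, whose product butyrophilin joins the membrane around secreted milk fat droplets, had 28 counts in all. It had 0, 4, 3 and 2 counts in WT males, 0 in the 4 Y665F males, 0, 0, 5 and 2 in Y665H males, 0 in the 4 WT females, 0, 0, 1 and 0 in Y665F females, and 0, 0, 0 and 11 in Y665H females. The 11 counts of Y665H female 4 (0.312 CPM, interval 0.156 to 0.559) were the highest, and that library was also the highest for Csn3. Its luminal list summed to 284 CPM, above the 135 to 254 CPM of the WT females and the 153 to 195 CPM of the other Y665H females. Y665F females 3 and 4 had higher sums, 1821 and 399.7 CPM. They had no count of Csn3, and 1 and 0 counts of Btn1a1. The part of epithelial cells in these counts was not tested.

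Glycam1 was read in nearly every library, at 1 to 9 counts in 23 of them. Its mucin-like product is secreted into milk and is also a ligand of L-selectin made by high endothelial venules of lymph nodes. It had 5, 0, 6 and 6 counts in WT males, 2, 2, 1 and 5 in Y665F males, 9, 1, 4 and 3 in Y665H males, 1, 3, 5 and 4 in WT females, 1, 2, 2 and 4 in Y665F females, and 5, 3, 8 and 7 in Y665H females. The 12 males held 44 counts and the 12 females 45. In order, the group means ran from 0.0751 CPM in Y665F females to 0.165 CPM in Y665H females, and no neighbours in this order differed by more than the larger of their SDs. Neighbours alone do not compare the ends of the order. For Y665H against Y665F females, the edgeR quasi-likelihood F test with no filter gave a log2 fold change of 1.23 (unadjusted p 0.0448, edgeR adjusted p 0.170). This pair is given because its means were the ends of the order, so that p is not evidence of a difference. With the filter, 5181 of 15493 tested genes had an unadjusted p under 0.05 in this comparison. In the other comparisons the same test of Glycam1 gave an unadjusted p of 0.133 to 0.958. A list of 8 genes of high endothelial venules, led by Gcnt1, Chst2 and Gpr182, summed to 29.1 to 82.6 CPM. A list of 12 lymph node stroma and B cell genes summed to 9.62 to 54.4 CPM. Of its genes, 7 to 11 had a mean of at least 1 CPM, depending on the group. Only Ccl21a was at 0 in every group. The part of these cells in the Glycam1 counts was not tested.

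Elf5 was the 1 gene of the 10 that ranged from trace to clear expression among libraries of the same group. Its product is an ETS factor that specifies milk-secreting alveolar cells downstream of prolactin. WT males 1 to 4 were at 0.0288, 2.30, 3.39 and 0.434 CPM (1, 72, 118 and 15 counts). Y665F males were at 0.0642, 0.0251, 0.191 and 15.0 CPM (2, 1, 4 and 467 counts). Y665H males had 1, 3, 1 and 1 counts. WT females had 5, 8, 4 and 3 counts, and Y665H females had 7, 8, 3 and 14. Y665F females were at 0.147, 0.0591, 2.54 and 0.373 CPM (4, 2, 74 and 11 counts). Single libraries therefore carried the group means: without Y665F male 4 the mean of Y665F males went from 3.82 ± 7.45 (SD, n = 4) to 0.0933 ± 0.0865 CPM (SD, n = 3), and without Y665F female 3 that of Y665F females went from 0.780 ± 1.18 (SD, n = 4) to 0.193 ± 0.162 CPM (SD, n = 3). In the order of the 6 means, 1 gap exceeded the larger SD of its pair, that between Y665H males (0.0411 ± 0.0243 CPM, SD, n = 4) and WT females (0.134 ± 0.0527 CPM, SD, n = 4).

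The libraries high in Elf5 were those high in luminal epithelial markers. The 5 libraries with the most Elf5, namely Y665F male 4, WT male 3, Y665F female 3, WT male 2 and WT male 4, were the 5 with the highest sums of the luminal list. The next in that list, Y665H male 3, summed to 716 CPM with Elf5 at 0.0302 CPM. The epididymis list was high in 4 of those 5 libraries and at 2.16 CPM in Y665F female 3. Krt8 was at 267.9 CPM in Y665F female 3, against 9.16 to 48.2 CPM in the other 11 female libraries. Foxa1 and Gata3, factors of luminal mammary cells that were picked after their values were seen, were at 50.0 and 106.7 CPM in Y665F female 3. Both belong to a list of 25 genes described below, whose members went both ways in that library. Prlr, at 22.8 CPM, and Stat5a, at 55.7 CPM, were at their lowest of the 24 libraries there, and Pgr, at 103.1 CPM, at its highest. Foxa1 was at 0 in WT males 2 and 3, at 1.16 CPM in Y665F male 4 and at most 7.95 CPM in the other female libraries. Gata3, in contrast, was at 52.9 CPM in WT male 2, 37.5 CPM in WT male 3, 16.8 CPM in WT male 4 and 69.5 CPM in Y665F male 4. The part of epithelial cells in the Elf5 values was not tested, and in bulk tissue fewer cells of a type and less RNA per cell cannot be told apart.

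**Figure D2:**
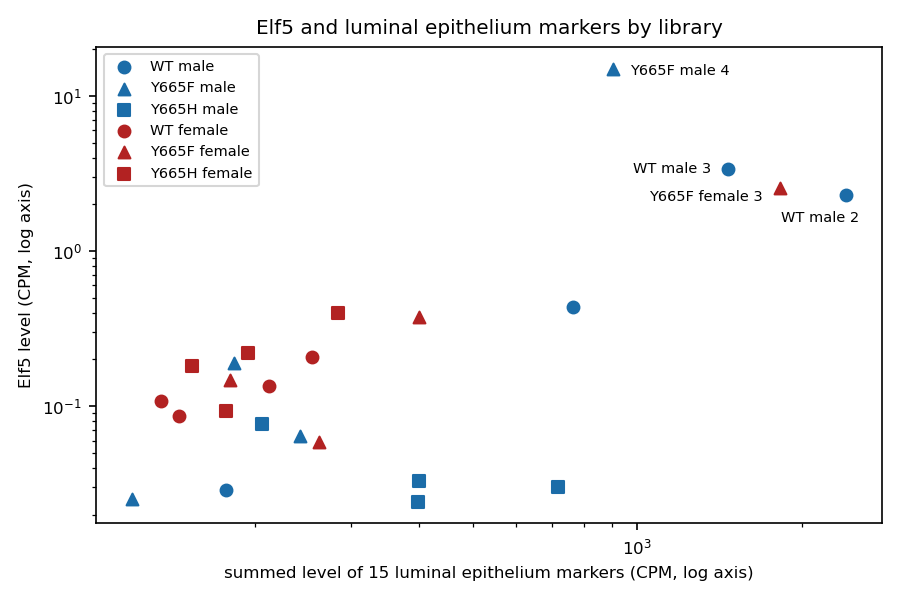
Elf5 level against the summed level of 15 luminal epithelial markers in the 24 libraries, both in CPM on log axes; shapes give the genotype and colours the sex, and the 4 libraries above 1 CPM of Elf5 are named. These 4 have luminal sums of 904 to 2410 CPM, and Y665H male 3 has a sum of 716 CPM with Elf5 at 0.0302 CPM.

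No difference in Elf5 passed the main test. That test was the quasi-likelihood F test of edgeR over all genes that passed a filter on low counts, with Benjamini-Hochberg adjustment, and genes below an adjusted p of 0.05 count as called. Elf5 passed the filter in 3 of the 9 comparisons. In Y665F against WT males its log2 fold change was 1.28 (SE 1.86, edgeR adjusted p 0.723), and it turned to -4.02 without Y665F male 4. Whether the effect of Y665F depended on sex was tested as an interaction, the log2 fold change in males minus that in females. It was -1.06 for Elf5 (edgeR adjusted p 0.808) and turned to 0.89 without Y665F female 3. The same interaction for Y665H was -5.79 (SE 1.37, edgeR adjusted p 0.0919), and was called without WT male 1 at -6.17 (SE 0.96, edgeR adjusted p 0.00415). The Wald test of DESeq2, with a filter of its own, called Elf5 lower in Y665H than in WT males (log2 fold change -5.17, adjusted p 0.0165) and higher in WT males than in WT females (3.35, adjusted p 0.0176). Elf5 had passed the edgeR filter in neither comparison. Over all genes, the alternative settings, DESeq2 among them, called 0 to 203 in the former and 569 to 5987 in the latter. Without WT male 1, Elf5 passed the edgeR filter in WT males against WT females, which it had not done with all libraries. It was then called higher in males (3.72, edgeR adjusted p 0.00955). That call came only after the WT male lowest in Elf5 was left out, so it is not separate support. Leaving out that library raised the calls over all genes from 2079 to 5076 in this comparison. In the interaction of Y665H it raised them from 2 to 1844. WT male 1 was the WT male with the lowest luminal sum, 178 CPM, and had 1 Elf5 count.

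The genes whose levels moved most like Elf5 were Wnt7b, Rhbdl2 and Mal2. Over the 24 libraries, after the mean of each group was subtracted from log2(CPM + 1), Spearman's rho with Elf5 was 0.93 for Wnt7b, 0.91 for Rhbdl2 and 0.89 for Mal2, the highest of 14837 genes. Wnt7b, which encodes a secreted WNT ligand, was at 19.1 CPM in WT male 2, 40.6 CPM in WT male 3, 17.0 CPM in Y665F male 4 and 12.5 CPM in Y665F female 3, and at 0.191 to 3.50 CPM in the other 20 libraries. These values share libraries, scaling and the epithelial markers given above, and they are a description.

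Xdh was abundant in every group and was called in none of the comparisons of the main test, 7 between 2 groups and 2 interactions. Not every pair of groups was compared, and WT males with Y665F females were not. It encodes xanthine oxidoreductase, the last enzyme of purine breakdown, which in the mammary gland also binds butyrophilin at the milk fat droplet and which adipocytes and capillary endothelium express. Xdh lies on chromosome 17 (GRCm38, 73883895 to 73950196, minus strand) and had 5948 to 21769 counts per library. WT males 1 to 4 were at 492, 190, 388 and 423 CPM, and WT females were at 532, 455, 518 and 504 CPM. WT male 2 was the lowest of all 24 libraries. Y665F males were at 508, 547, 616 and 427 CPM, and Y665F females at 733, 611, 425 and 714 CPM. Among Y665F females, 3 of the 4 were above every WT female, and the other, Y665F female 3, was below them all. Y665H males were at 504, 524, 465 and 524 CPM, and Y665H females at 441, 462, 495 and 449 CPM.

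The group means of Xdh in rising order were 373 ± 130 CPM in WT males, 462 ± 23.7 in Y665H females, 502 ± 33.6 in WT females, 504 ± 27.6 in Y665H males, 524 ± 79.0 in Y665F males and 621 ± 141 in Y665F females (SD, n = 4 each). Of the neighbours in this order, only Y665H females and WT females were separated by more than the larger of their SDs. Without WT male 2 the mean of WT males was 434 ± 53.0 CPM (SD, n = 3), and without Y665F female 3 that of Y665F females was 686 ± 65.5 CPM (SD, n = 3).

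**Figure D3:**
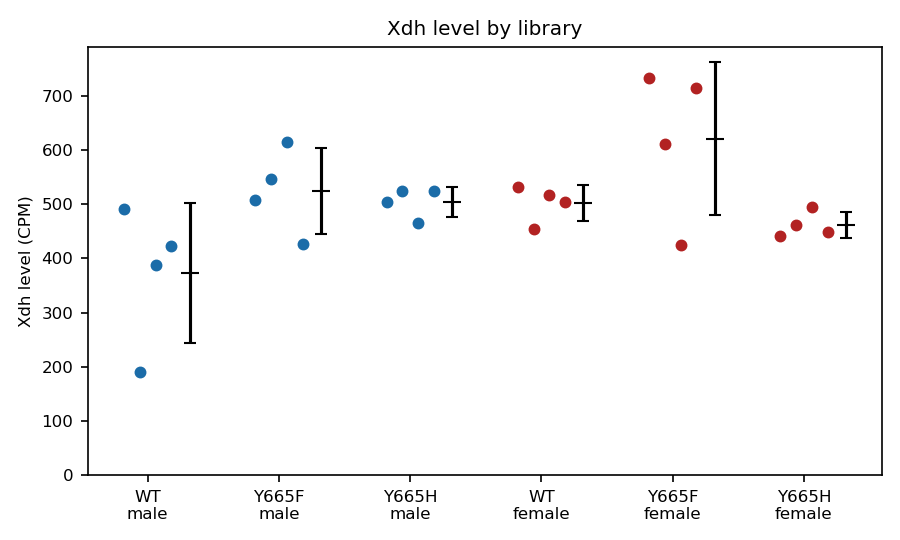
Xdh level in CPM by group; points are libraries in the order of their replicate numbers, and the bars beside them give the mean ± SD of 4 libraries. WT male 2 at 190 CPM and Y665F female 3 at 425 CPM lie below the rest of their groups.

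Xdh in Y665F females was 0.18 higher on the log2 scale than in WT females (SE 0.18, 95% interval -0.23 to 0.58, edgeR adjusted p 0.547). Of the 10 genes, Xdh alone passed the filter in this comparison, and 0 were called, against 3.33% of the 15642 genes tested. In males the same difference was 0.54 (SE 0.30, 95% interval -0.16 to 1.23, edgeR adjusted p 0.372); 0 of the 2 genes that passed the filter were called, against 0% of 16240 tested, where 2772 had an unadjusted p under 0.05 and DESeq2 called 1141. The interval in males includes changes of more than 2-fold, whereas that in females ends below it. The interaction with sex was 0.36 (95% interval -0.41 to 1.14, edgeR adjusted p 0.567), with 0 of 2 called against 0% of 16732 tested, with 3645 at an unadjusted p under 0.05 and 1168 called by DESeq2.

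Xdh in Y665H females differed from that in WT females by -0.11 on the log2 scale (SE 0.083, 95% interval -0.29 to 0.08, edgeR adjusted p 0.465), with 0 of 1 called against 3.34% of 15469 tested. In males it was 0.44 (SE 0.28, 95% interval -0.20 to 1.08, edgeR adjusted p 0.433), with 0 of 1 called against 0% of 16406 tested, with 1874 at an unadjusted p under 0.05 and 119 called by DESeq2. The interaction with sex was 0.55 (95% interval -0.08 to 1.18, edgeR adjusted p 0.325), with 0 of 2 called against 0.0119% of 16827 tested. The comparisons of each mutant with WT share the same WT libraries, among them WT male 2.

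Between the mutants, Xdh in Y665H females was -0.29 from that in Y665F females on the log2 scale (SE 0.18, 95% interval -0.69 to 0.12, edgeR adjusted p 0.287), with 0 of 1 called against 17.4% of 15493 tested. Without Y665F female 3 the difference was -0.44 (SE 0.089, edgeR adjusted p 0.0132) and was called, in a fit that called 2839 genes. In the other 7 of 8 fits with 1 library left out it was not called, and without Y665F female 1 it was -0.18. Y665F female 3 held the next-to-highest luminal sum and 1 of the 3 lowest adipocyte sums, 12391 CPM against 18860 to 20924 CPM in the other Y665F females. In males the difference was -0.11 (SE 0.15, 95% interval -0.45 to 0.22, edgeR adjusted p 0.732), with 0 of 1 called against 1.03% of 15986 tested.

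In WT mice, Xdh in males was -0.57 from that in females on the log2 scale (SE 0.27, 95% interval -1.19 to 0.04, edgeR adjusted p 0.173), with 0 of 1 called against 13.1% of 15865 tested. A fit over all 24 libraries, which shares 1 estimate of the spread, called it at -0.59 (edgeR adjusted p 0.0414). With WT males 2 and 3 left out, an alternative chosen after the data were seen, the value was -0.28 and was not called.

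**Figure D4:**
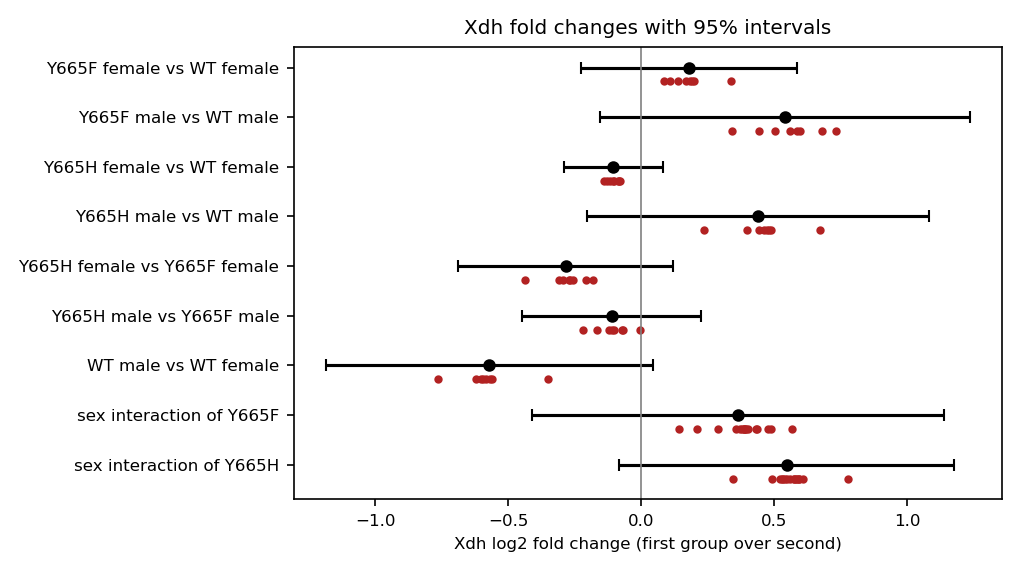
Log2 fold changes of Xdh (first group over second; for interactions, the effect in males minus that in females) in 9 comparisons, as black points with 95% intervals from the edgeR fit. Red points below each give the values with 1 library left out. Every interval includes 0, and the red points stay on the side of the black point.

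Xdh and the adipocyte markers were low together in some libraries but not in all. The 3 libraries with the lowest adipocyte sums were WT male 2 (6961 CPM), Y665F male 4 (11483 CPM) and Y665F female 3 (12391 CPM), and each had the lowest Xdh of its group. Y665F male 3, the next in adipocyte sum (15713 CPM), had the highest Xdh of its group at 616 CPM. The 4 Y665H females had the highest adipocyte sums of all libraries, 24280 to 27938 CPM, with Xdh at 441 to 495 CPM. An endothelial list of 7 genes, led by Cdh5, Pecam1 and Kdr, summed to 527 CPM in WT male 2 and 594 CPM in Y665F female 3, the lowest of their groups, and to 852 CPM in Y665F male 4, also the lowest of its group. The part of these cell types in the Xdh values was not tested. Ebf2, Sult1a1 and Gsn were the genes most like Xdh, with Spearman's rho of 0.93, 0.89 and 0.87 over the 24 group-centred libraries. Ebf2, a transcription factor of adipocyte precursors and brown adipocytes, was at 17.1 CPM in WT male 2 and 26.4 CPM in Y665F female 3, and at 40.8 to 70.1 CPM in the other 22 libraries. Elf5 and Xdh had a rho of -0.62 over the same libraries.

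The prolactin pathway itself was measured with a list of 25 genes of prolactin and STAT5 signalling and mammary regulation. Prl, the ligand, was at 0 in every group. Prlr, its receptor, was at 33.0 to 54.5 CPM in the group means, Jak2 at 53.7 to 74.0 CPM, and Stat5a at 79.6 to 101.7 CPM. Stat5b, the mutated gene, was at 94.7 to 115.1 CPM in the group means; a point mutation leaves its count in place, so it does not check the genotype. Against WT, 0 of 22 tested genes of the list were called in Y665F females, 0 of 21 in Y665F males, 0 of 22 in Y665H females and 0 of 21 in Y665H males by edgeR, against 3.33%, 0%, 3.34% and 0% of all tested genes. An unadjusted p under 0.05 was reached by 9, 5, 2 and 3 of them, against 4107 of 15642, 2772 of 16240, 3679 of 15469 and 1874 of 16406 over all tested genes. Their median log2 fold changes were 0.09, 0.06, 0.22 and -0.04, beside 0.02, -0.04, -0.0046 and -0.05 over all tested genes.

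Between the sexes in WT mice 3 of 21 tested genes of that list were called, all lower in males, a share near the 13.1% of all tested genes. Pgr, the progesterone receptor gene, averaged 0.705 ± 0.155 CPM for males against 12.3 ± 6.04 CPM for females (SD, n = 4; log2 fold change -4.25, edgeR adjusted p 0.00256). Esr1, the oestrogen receptor gene, was at 89.8 ± 11.8 and 204.4 ± 37.1 CPM (SD, n = 4; -1.34, edgeR adjusted p 0.00371). Socs2, a STAT5-induced inhibitor of cytokine signalling, was at 11.8 ± 2.13 and 22.9 ± 7.20 CPM (SD, n = 4; -1.11, edgeR adjusted p 0.0256), a call that was lost in 4 of 8 fits with 1 library left out, those without WT male 3 and without WT females 1, 2 and 4.

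Other milk and milk fat globule genes were followed with a list of 22, of which 21 were in the files. Against WT, 1 of 13 tested was called in Y665F females, 0 of 16 in Y665F males, 0 of 12 in Y665H females and 0 of 16 in Y665H males by edgeR, against 3.33%, 0%, 3.34% and 0% of all tested genes. An unadjusted p under 0.05 was reached by 6, 4, 2 and 3 of them, beside the counts over all tested genes given above, and the medians were -0.28, -0.37, 0.03 and -0.39. The called gene was Cidea, whose protein acts at lipid droplets in brown adipocytes and in the lactating gland. It averaged 1.53 ± 1.16 CPM among the Y665F and 18.9 ± 6.38 CPM among the WT libraries (SD, n = 4), with a log2 difference of -3.78 (SE 0.56) and an edgeR adjusted p of 0.0171. Leaving out WT female 2, WT female 4 or Y665F female 4 ended the call. Cidea was at 23.3 ± 16.6 CPM in Y665H females and at 1.63 to 1.98 CPM in the means of the 3 male groups. Of 4 tested genes in a list of thermogenic adipocyte markers, 3 were also called lower in Y665F females, and the list summed to 9.00 to 15.5 CPM there and to 29.2 to 66.5 CPM in WT females. Of 9 tested skeletal muscle genes 0 were called there, with a median of -2.94. The part of these cells in the Cidea difference was not tested.

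In WT mice 4 of 15 tested genes of that list were called between the sexes, against 13.1% of all tested genes. Cidea fell in males by 3.59 on the log2 scale (edgeR adjusted p 0.00299). All 4 tested thermogenic adipocyte markers were also called lower in males, with a median of -2.28 and sums of 4.00 to 10.3 CPM against 29.2 to 66.5 CPM in females, and their part in the Cidea difference was not tested. Slc34a2, a phosphate transporter gene of secretory epithelia, averaged 28.8 ± 27.2 CPM for males against 0.0202 ± 0.0258 CPM for females (SD, n = 4; edgeR adjusted p 0.0119). The antimicrobial genes Lcn2 and Ltf averaged 371 ± 609 and 144.5 ± 118.6 CPM for males against 0.523 ± 0.171 and 0.754 ± 1.43 CPM for females (SD, n = 4; edgeR adjusted p 0.0181 and 0.0478). WT male 2 carried the mean of Lcn2, at 1280 CPM, and without it the mean of WT males was 67.5 ± 69.1 CPM (SD, n = 3); that of Slc34a2 was then 16.7 ± 15.0 CPM (SD, n = 3). With 1 library left out, the call was lost in 3 of 8 fits for Slc34a2 (WT females 1, 2 and 4), in 4 for Lcn2 (each WT female) and in 7 for Ltf (each library but WT male 1). In WT male 1, whose epididymis sum was 1.30 CPM, Ltf was at 0.0864 CPM, Lcn2 at 8.52 CPM and Slc34a2 at 0.576 CPM, the lowest of the WT males for each. The part of epididymal tissue in these 3 differences was not tested.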

How the data were processed

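Total RNA of adipose tissue was depleted of ribosomal RNA, made into stranded libraries and sequenced as read pairs, per the labels' protocols. The submitters' processing notes name FastQC 0.11.9, Trimmomatic 0.36, STAR, SAMtools 1.9, Picard 2.9.2, HTSeq 0.9.1 and the build mm10. The gene annotation and the strand setting are not given in the sources used here, so reads of overlapping, antisense or near-identical genes could be split or dropped. The authors deposited raw counts per gene symbol, 1 file per library, with 5 entries that name no gene (24.8 to 39.7% of a library's counts), which entered neither library sizes nor tests. The ribosomal gene Rn45s held 3.27 to 15.0% of gene counts. No 2 libraries of a group agreed within sampling noise (chi-square per degree of freedom of at least 16.4 over 36 pairs).

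CPM were computed from the sums over gene symbols, and intervals are exact 95% binomial intervals. Contrasts were fitted in R 4.3.3 with edgeR 4.0.16 (quasi-likelihood F test; TMM scaling, filterByExpr, Benjamini-Hochberg adjustment over all genes tested) on the 8 libraries of the groups compared, and interactions on 16. The SE is the log2 fold change divided by the root of F. Scripts were tested on simulated data. Alternatives were DESeq2 1.42.0, scaling by library totals, no filter, 1 fit over 24 libraries, the replicate number as a block and each library left out in turn. Gene positions come from GENCODE on GRCm38 (mm10) and promoter windows from RefSeq GRCm38.p6.

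The 10 genes and the 2 pathway lists and marker lists were chosen with earlier results of these data known. The text names the 10 genes, for each pathway list and each contrast of a mutant with WT or of WT males with WT females at most 4 called genes by smallest p, the 3 genes most like Elf5 and Xdh by Spearman's rho of group-centred log2(CPM + 1), pseudocount 1, and the 3 most abundant genes of a marker list. Markers were read for luminal and basal epithelium, epidermal keratinocytes, epididymis, lymph node, endothelium, adipocytes, thermogenic adipocytes, skeletal muscle, salivary or lacrimal gland and liver.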

Additional observations from a re-analysis of the deposited data

Results flagged for a closer look

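Within groups of 4 libraries, 26 combinations of gene and group were tested for a library that stands apart by Dixon's criterion, and 7 exceeded its 95% critical value. Chance gives such a value in about 1 of 20 groups of normally distributed values. That rate does not apply here, because the combinations were those with at least 1 library above the counting floor, and a group with counts in 1 library alone exceeds the value by construction.

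The highest library stood apart for Elf5 in Y665F males, where Y665F male 4 was at 15.0 CPM and the next library at 0.191 CPM, and in Y665F females, where Y665F female 3 was at 2.54 CPM and the next at 0.373 CPM. Both libraries were also the highest of their groups in the luminal list, with sums of 904 and 1821 CPM.

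In Y665H female 4, Csn3 was at 0.398 CPM and Btn1a1 at 0.312 CPM, and the other libraries of the group had no count of either gene. The luminal list of that library summed to 284 CPM and its Elf5 level was 0.398 CPM, the highest of the Y665H females for both.

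Csn1s2a stood apart in Y665H male 3, at 0.181 CPM against 0.0242 CPM in the next library. The epididymis list of that library summed to 1604 CPM.

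Glycam1 stood apart at the lower end in WT male 2, with a level of 0 CPM against 0.144 CPM in the next library, and at the upper end in Y665F male 4, at 0.160 CPM against 0.0642 CPM. These 2 values are counts of 0 and 5.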

How the results depend on the processing

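The count of called members among the 10 genes, 0 in all 9 comparisons, was the same in 132 of 138 alternative fits. In the main test only 1 or 2 of the 10 genes passed the filter in a comparison, so there the count concerns Xdh and in some comparisons Elf5. It says nothing of the other genes. It was 1 with DESeq2 in Y665H against WT males and in WT males against WT females (Elf5 in both), and 1 in the latter in the fit over all 24 libraries (Xdh). With single libraries left out it ranged from 0 to 1 in Y665H against Y665F females, in WT males against WT females and in the interaction of Y665H with sex; the libraries were Y665F female 3 (Xdh), WT male 1 (Elf5) and WT male 1 (Elf5). Xdh kept its direction in all 138 alternative fits and its side of the threshold in 136. Elf5 reversed in 4 of 58. In Y665F against WT males its log2 fold change was -1.74 with the replicate block and ranged from -4.02 to 2.07 with single libraries left out. In the interaction of Y665F it ranged from -6.39 to 0.89, and was 1.71 with WT males 2 and 3 left out, a choice made after seeing the data. The reversals without Y665F male 4 and without Y665F female 3 follow from leaving out the library that held most of its group's Elf5 counts; for the others the cause was not tested.

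No consistent pairing of the samples by replicate number was seen. Over 28 pairs of libraries with the same number the correlation of deviations from the group means was -0.38 to 0.72, with a median of 0.024. Of these pairs 10 exceeded 0.1, and in 6 the same number was the best match. The libraries also differed in markers of other tissues, so this check cannot exclude a pairing. With the number as a block, Xdh was 0.14 in Y665F against WT females and -0.66 in WT males against WT females, and no member was called in any comparison.

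Scaling by library totals moved the median log2 fold change of all tested genes from 0.02 to 0.15 for Y665F against WT females, from -0.03 to -0.18 for Y665H against Y665F females, from 0.04 to 0.22 between WT males and WT females and from -0.06 to -0.25 for the interaction of Y665F. Xdh was then 0.31, -0.43, -0.41 and 0.18, with the same direction and no call. Counts of all called genes, which give the background shares, moved widely. Under the other settings they ranged from 390 to 2027 (main 521) for Y665F against WT females, 0 to 2261 (0) for males, 32 to 1749 (516) for Y665H against WT females, 0 to 203 (0) for males, 1583 to 3957 (2689) and 0 to 1097 (164) for Y665H against Y665F females and males, 569 to 5987 (2079) for WT males against females, and 0 to 1168 (0) and 0 to 715 (2) for the interactions of Y665F and Y665H. With single libraries left out the ranges in the same order were 67 to 747, 0 to 570, 20 to 1269, 0 to 1, 1554 to 2839, 10 to 220, 251 to 5076, 0 to 1686 and 0 to 1844. For 8 of the 10 genes depth is the limit: the exact 95% upper limit for a library with no count of a gene is 0.0892 to 0.176 CPM.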

Other observations

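Further genes of the pathway lists, which the rule for naming genes did not cover, were called between Y665H and Y665F females, where 17.4% of all tested genes were called. Tnfrsf11a, which encodes the receptor RANK, averaged 16.6 ± 4.37 CPM among Y665H against 37.7 ± 12.7 CPM among Y665F females (SD, n = 4), with a log2 difference of -1.04 (SE 0.24) and an edgeR adjusted p of 0.0196. Id2, a helix-loop-helix inhibitor needed for alveolar growth, was at 5.80 ± 1.42 and 15.5 ± 9.61 CPM (SD, n = 4; -1.26, edgeR adjusted p 0.0454), and its call was lost in 6 of 8 fits with 1 library left out, at an adjusted p of up to 0.112: those without Y665F female 1 or 4 and those without any 1 of the Y665H females. The call of Tnfrsf11a was lost without Y665H female 1 and without Y665H female 3. The lipid droplet genes Plin2, at 415.9 ± 61.1 and 300.8 ± 13.6 CPM (SD, n = 4; 0.62, edgeR adjusted p 0.0137), and Cidea, at 23.3 ± 16.6 and 1.53 ± 1.16 CPM (SD, n = 4; 4.10, edgeR adjusted p 0.0079), were higher in Y665H females and were called in all 8 fits with 1 library left out. In the same comparison 3 of 5 tested thermogenic adipocyte markers (median 3.11), 2 of 12 adipocyte markers (median 0.53) and 5 of 9 skeletal muscle markers (median 4.03) were called higher; their part in these differences was not tested. Between Y665H and Y665F males 0 of 22 and 0 of 15 tested genes of the 2 lists were called with edgeR, with 5 and 1 at an unadjusted p under 0.05, against 1.03% of all tested genes; whether the females and males differ in this was not tested.

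The remaining marker lists were at the following sums over the 24 libraries. Basal epithelial markers reached 4980 CPM in Y665F female 3 and 2173 CPM in Y665F male 4, the highest of their groups. Epidermal keratinocyte markers summed to 2.39 to 8.76 CPM, salivary or lacrimal gland markers to 0.0259 to 0.416 CPM and liver markers to 2.58 to 23.7 CPM. Skeletal muscle markers summed to 18.8 to 1181 CPM, with the highest value in a Y665H female.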
